A study of Mus musculus with 4 samples.

Results

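Ion channel genes were described by the H3K4 chromatin immunoprecipitation signal at their promoters in mouse B cells. The set holds the protein-coding genes of GENCODE vM1 (mm9) whose names begin with Kcn, Scn, Cacn, Ryr, Itpr, Trpc, Trpm or Trpv followed by a number, without the Itprip names, which gives 167 of 22367 gene entries. These carry 164 names, since Kcnb2, Kcnh8 and Scn8a are each split over 2 entries, and Trpc4ap is in the set by name although its product is a partner of a channel and not a channel. Membership was decided by names alone, though the set was chosen with earlier results of these data known. The 2 libraries analysed, of 4 samples in the series, came from splenic B cells depleted of CD43-positive cells from mice of 6 to 14 weeks, cultured for 2 days with LPS at 25 µg/ml and either anti-IgD-dextran (2.5 ng/ml) or IL-4 (5 ng/ml). The first library is labelled PA1-KO and the other PA1-WT. The labels give neither which of these additions was used, nor the methylation state of H3K4 that was precipitated, nor how PA1 was deleted. PA1 and its partner PTIP form part of the MLL3 and MLL4 complex, which methylates H3K4, and the series concerns their role in immunoglobulin class switching. Native mononucleosomes from MNase digestion were precipitated.

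Nuclear reads numbered 5259995 in the knockout and 5539475 in the wild type. Each genotype has 1 library, so no test between genotypes can be made. Values compare these 2 libraries, and each 95% interval (exact binomial, Clopper-Pearson) covers counting error only. Reads at the PA1 promoter itself were 114 in the knockout and 261 in the wild type (ratio 0.498, 0.396 to 0.624), which does not check the genotype label unless the window lies in the deleted part. All 10 B cell marker promoters had 50 or more reads, from 577 at Fcer2a to 1111 at Pax5. Among markers of other cells, 1 of 10 T and NK cell promoters reached 50 reads (Lck), 3 of 9 myeloid (Itgam, Cd14, Cebpa), 2 of 9 neuronal (Tubb3, Gad1) and 1 of 10 striated muscle (Actn2). Their summed reads in the knockout and wild-type libraries were 155 and 190 for T and NK cells, 224 and 322 for myeloid cells, 123 and 177 for neurons and 55 and 67 for striated muscle, with Csf1r, Ckm and Myog at 0 in both, and their part in the results below was not tested. In a bulk library, fewer cells with a mark and less mark per cell cannot be told apart.

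Ion channels are membrane proteins that let potassium, sodium or calcium pass, and most were first known from nerve, muscle and epithelia. In lymphocytes, potassium channels keep the membrane potential negative and so sustain calcium entry, while IP3 receptors release calcium from the endoplasmic reticulum after the antigen receptor activates phospholipase C. Methylation of H3K4 marks promoters, those rich in CpG dinucleotides above all, and enhancers.

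Most channel promoters carried little H3K4 signal in these B cells. Reads were counted within 1 kb of the transcription start site (TSS) with the most reads, and a promoter with 50 or more reads in both libraries together is called marked; the genome average for such a window is 8.14 reads. Of the 167 channel promoters, 53 were marked (31.7%, 24.8 to 39.4%), against 54.5% of all protein-coding promoters. The other 114 had a median of 4 reads, and 8 of them had none. Just above the threshold stood Kcnk4, a tandem-pore potassium channel, with 22 knockout and 29 wild-type reads, and Ryr2 with 6 and 48. Just below it were Kcnk12 with 15 and 33 reads and Kcna7 with 19 and 28. A promoter near the threshold can pass mainly through 1 library, as Ryr2 did.

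The share of marked members ranged widely between families. All 3 IP3 receptor genes were marked, as were 11 of 26 Cacn, 4 of 8 Trpc (Trpc4ap among them), 4 of 8 Trpm, 26 of 95 Kcn, 3 of 18 Scn, 1 of 3 Ryr and 1 of 6 Trpv genes. By role, 6 of 10 pore subunits of voltage-gated calcium channels were marked, against 7 of 32 voltage-gated potassium channels, 2 of 15 inward rectifiers and 1 of 11 pore subunits of voltage-gated sodium channels. Among channels listed as known from lymphocytes, 19 of 23 were marked. Lists of channels best known from other tissues had 5 of 13 marked for heart, 3 of 7 for skeletal muscle, 8 of 30 for neurons, 2 of 10 for sensory cells and 2 of 12 for epithelial transport. The lymphocyte and tissue lists overlap in part, with Ryr2, Cacnb2, Cacna1s and Cacnb1 among the genes in both. All these lists were chosen with earlier results of these data known, so their shares are no independent comparison.

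Marked channels lay at CpG-rich promoters more often than unmarked ones, but a high CpG content went with a mark less often in channels than in other genes. The ratio of observed to expected CpG within 1 kb of the TSS had a median of 0.617 at the marked members and 0.383 at the others. Where it was 0.6 or more, 28 of 57 channel promoters were marked (49.1%, 35.6 to 62.7%), against 6843 of 7696 other promoters (88.9%, 88.2 to 89.6%). Between 0.4 and 0.6 the shares were 39.0% (24.2 to 55.5%) and 76.4% (75.2 to 77.6%). Below 0.2 the order of the shares was the opposite, with 3 of 21 channels (14.3%, 3.05 to 36.3%) and 5.64% of others, within the interval of the first. Unmarked promoters of the CpG-rich class included those of Kcnk12, with the 15 knockout and 33 wild-type reads given above, and of the neuronal potassium channel Kcnd2, with 2 and 3. These intervals treat promoters as independent.

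**Figure D1:**
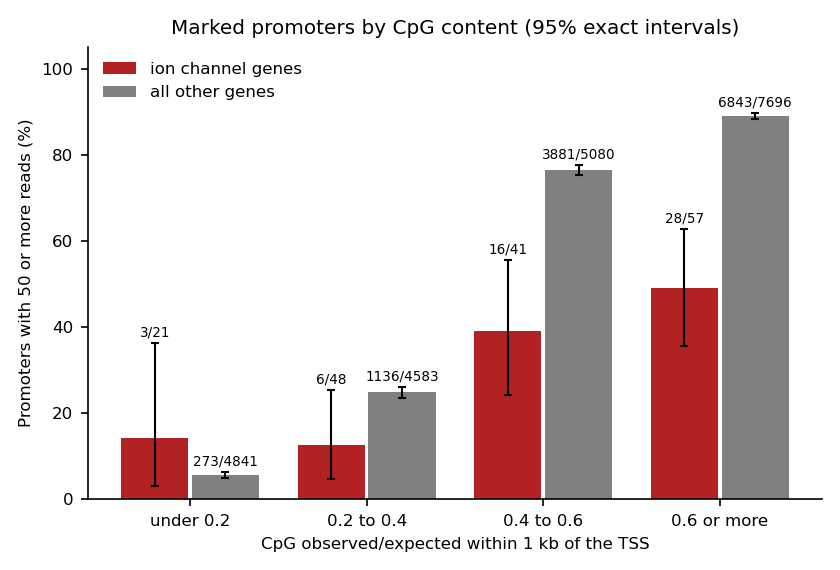
Share of promoters with 50 or more reads (vertical axis, %) by observed to expected CpG within 1 kb of the TSS, for ion channel genes and all other protein-coding genes, with exact 95% intervals and counts above the bars. In the class of 0.6 or more, 28 of 57 channel promoters and 6843 of 7696 others were marked.

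Differences in CpG content between marked channels can be read in the 250 bases upstream of the counted TSS, shown here for 4 genes. The bases are taken from the NCBIM37 assembly (mm9), written 5′ to 3′ along the gene's strand with each CpG in capitals. The 4 genes were chosen after their values were seen. Itpr3 (chr17:27193999-27194248, plus strand; 25 CpG) and Kcna3 (chr3:106838830-106839079, plus; 31) are marked and CpG-rich, and Trpv2 (chr11:62388799-62389048, plus; 8) is strongly marked with few CpG. Ryr2 (chr13:12199213-12199462, minus; 14) differed most between the libraries. None of these stretches overlaps an annotated exon.
Itpr3: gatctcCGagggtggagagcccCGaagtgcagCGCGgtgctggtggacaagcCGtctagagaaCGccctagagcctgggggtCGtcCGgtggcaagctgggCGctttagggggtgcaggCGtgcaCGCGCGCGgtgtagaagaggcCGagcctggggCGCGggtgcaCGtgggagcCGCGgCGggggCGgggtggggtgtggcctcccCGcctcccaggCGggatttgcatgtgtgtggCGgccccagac
Kcna3: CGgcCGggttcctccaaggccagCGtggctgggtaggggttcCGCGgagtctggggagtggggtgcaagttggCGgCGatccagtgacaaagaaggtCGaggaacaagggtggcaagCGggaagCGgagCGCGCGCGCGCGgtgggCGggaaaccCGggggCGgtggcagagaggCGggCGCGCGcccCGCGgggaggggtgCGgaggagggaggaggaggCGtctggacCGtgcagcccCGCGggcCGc
Trpv2: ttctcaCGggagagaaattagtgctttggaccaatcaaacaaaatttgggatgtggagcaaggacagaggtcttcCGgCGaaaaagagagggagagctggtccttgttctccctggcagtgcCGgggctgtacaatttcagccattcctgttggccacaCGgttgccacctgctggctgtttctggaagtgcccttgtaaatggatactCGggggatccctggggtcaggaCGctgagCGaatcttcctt
Ryr2: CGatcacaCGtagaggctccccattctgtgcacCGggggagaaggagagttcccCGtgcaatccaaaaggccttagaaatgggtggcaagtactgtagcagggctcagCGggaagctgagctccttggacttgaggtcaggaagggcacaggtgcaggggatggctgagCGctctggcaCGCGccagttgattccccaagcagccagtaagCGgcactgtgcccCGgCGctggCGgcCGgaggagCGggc
The Kcna3 stretch holds the most CpG of the 4 and the Trpv2 stretch the fewest.

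Short motifs tied to neuronal and to housekeeping genes were searched for at channel promoters. The letters TTCAGCACC, the left part of the element bound by the neuronal repressor REST, occurred on either strand within 1 kb of the TSS at 12 of 167 channel promoters (7.19%), against 2.92% of all promoters with windows of that length. Of these 12, 3 were marked, namely Kcng3, Kcnh4 and Kcnh3, and 9 were not, Kcnc1 and Kcnk3 among them. The letters CCGGAAGT, a binding site of ETS family factors that is common at housekeeping promoters, occurred at 2 of 167 (1.20%), against 8.62% of all. A match to these letters does not show that a factor binds there.

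The promoter windows with the most reads under a channel's name were in part those of other genes. Trpm8, which encodes the cold sensor of sensory neurons, led with 638 knockout and 647 wild-type reads, but its window holds the TSS of Hjurp, a chaperone of centromeric histone. The other Trpm8 start sites had at most 3 knockout and 8 wild-type reads. Trpc2, a channel of the vomeronasal organ, had 457 and 423 reads in a window that holds the TSS of Rnf121. Its start sites outside that window had at most 3 and 3. Of all 167 members, 3 windows held the TSS of another protein-coding gene (the third was the unmarked Trpc5), and without them 51 of 164 were marked.

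The strongest window without another coding TSS belonged to Trpv2, a cation channel known from lymphocytes and macrophages (ENSMUSG00000018507.10; chromosome 11, TSS 62389049). It held 555 knockout and 543 wild-type reads (ratio 1.17, 1.03 to 1.32). The counted Trpv2 TSS lies 1061 bp inside the gene's 5′-most one, whose window held 293 and 242 reads. Kcnab2, a cytoplasmic beta subunit of voltage-gated potassium channels (chromosome 4, TSS 151822850), followed with 377 and 456 reads (ratio 0.944, 0.821 to 1.08). The counted Kcnab2 TSS lies 29130 bp inside the gene's 5′-most one. Trpm7, a magnesium-permeable channel with a kinase domain that B cells need for growth (chromosome 2, TSS 126701853), had 334 and 324 reads (ratio 1.18, 1.01 to 1.38). None of these 3 promoters reached the 1.5-fold threshold.

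The IP3 receptors, which release calcium downstream of the B cell receptor, had nearly equal levels. Itpr2 (chromosome 6, TSS 146450400) had 355 knockout and 416 wild-type reads, Itpr1 (chromosome 6, TSS 108163112) 352 and 414, and Itpr3 (chromosome 17, TSS 27194249) 314 and 392. Normalized wild-type levels (RPM), comparable between genes because all windows have the same length, were 72.1, 71.8 and 68.0. The ratios were 0.974 (0.843 to 1.12), 0.970 (0.839 to 1.12) and 0.914 (0.786 to 1.06), so each interval included 1.

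**Figure D2:**
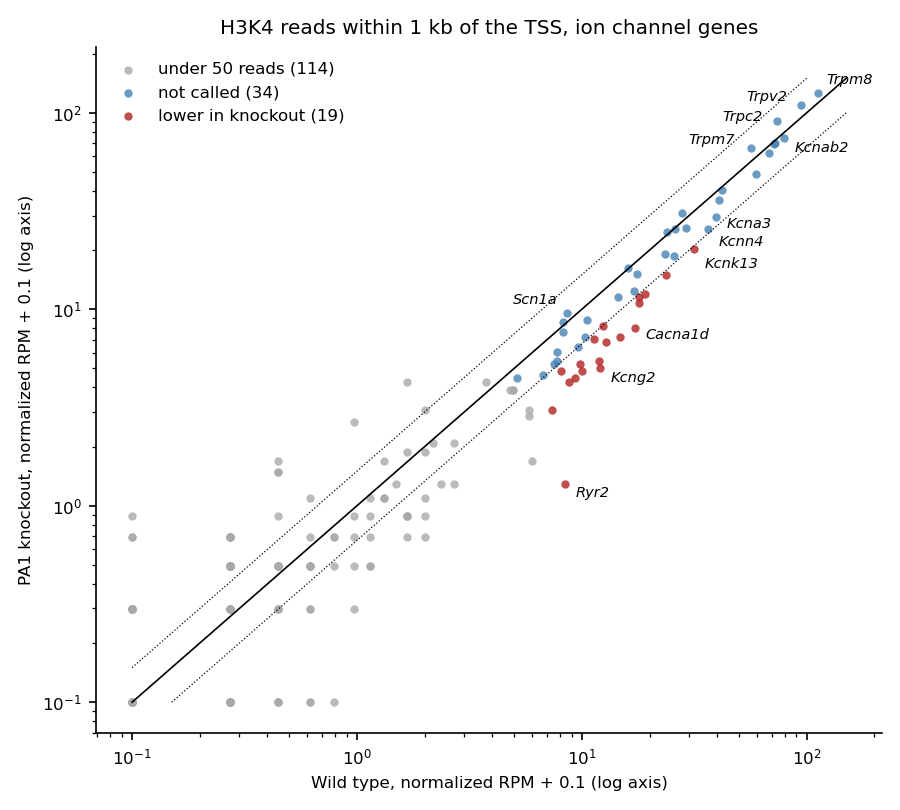
Normalized RPM within 1 kb of the TSS plus 0.1, wild type (horizontal) against knockout (vertical), both on log axes, 1 point per channel gene; the solid line marks equal values and the dotted lines 1.5-fold. The 19 promoters lower in the knockout library lie below the lower dotted line, with Ryr2 farthest from it, and none of the 53 marked promoters lies above the upper one.

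Among marked channel promoters, 19 were lower in the knockout library and 0 higher. A promoter was counted so when its ratio of knockout to wild type, after TMM scaling (trimmed mean of M values), departed from 1 by 1.5-fold or more with an interval that left out 1. By the same rule 4.9% of all 12186 promoters with 50 or more reads were lower and 0.665% higher, against 35.8% and 0% of the 53 channels. The median ratio of the marked channels was 0.730 and 44 of 53 were below 1, while the median over all such promoters was 1.001. Since marked channels had a median of 157 reads and all marked promoters 462, and since promoters with fewer reads had lower ratios in all genes, channels were also set against promoters of like reads.

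Channels stood below promoters of like reads, by less than they stood below all promoters. Against other promoters with combined reads within 20% of its own, the median channel was lower by 0.18 on the log2 scale, and 37 of 53 were below the median of their like promoters. In the class of 50 to 100 reads, 9 of 19 channels were lower, against 26.8% of all promoters of that class, and the median ratios were 0.664 for channels and 0.738 for other promoters. With 100 to 200 reads it was 8 of 13, against 21.1%, with medians of 0.643 and 0.811. With 200 to 400 reads it was 2 of 10, against 3.53%, with medians of 0.779 and 0.946. With 400 to 800 reads it was 0 of 7, against 0.0638%, with medians of 0.957 and 1.03, and with more reads 0 of 4, against 0%, with medians of 1.15 and 1.07. The median GC content of the marked channels was 56.9% and that of their like promoters 55.5%. With the trend of the ratio on GC content removed, the median difference from like promoters was -0.09 in place of -0.18.

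The count of lower channels changed with the way of counting and scaling. With a running median of the ratio over the read level removed, 5 of the 19 were still lower (Cacna1d, Kcng2, Kcnh4, Ryr2 and Scn4b), against 1.27% of all promoters. With the trends on read level and GC content both removed, 8 were lower (those 5 with Kcne3, Kcnip2 and Kcnk13), against 1.13% of all. With the GC trend alone removed it was 13, against 3.66%. Scaled to total reads 23 were lower, against 7.78%, and scaled to reads outside islands and promoters 31, against 16.7%. The 500 bp window gave 10 of 43 (3.71% of all promoters), the 2 kb window 13 of 61 (5.36%), counting without the 75 bp shift 20 of 53 (4.86%), a minimum of 20 reads 21 of 66 (5.29%) and a minimum of 100 reads 10 of 34 (3.34%). At the 5′-most TSS it was 14 of 43 (4.68%), without windows that hold another TSS 19 of 51 (5.7%), and at a 2-fold threshold 9 of 53 (1.33%). The 2 kb window and the minimum of 20 reads each gave 1 higher channel, against 0.773% and 0.838% of all promoters, namely Scn11a with 40 knockout and 21 wild-type reads and Kcnip3 with 21 and 9.

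**Figure D3:**
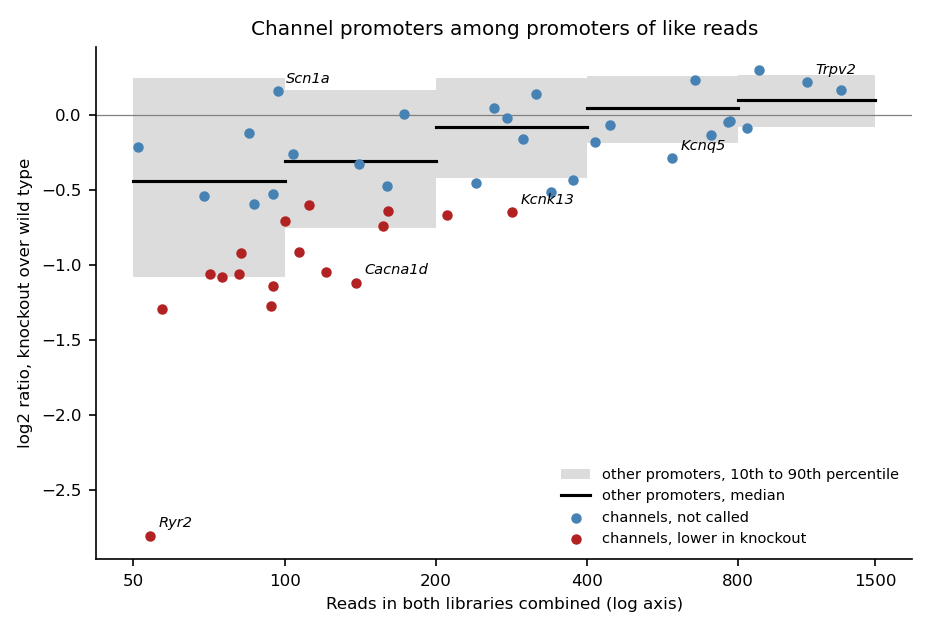
log2 ratio of knockout to wild type (vertical) against reads in both libraries (log axis) for the marked channel promoters named in the text. The line is the median and the grey band the 10th to 90th percentile of all other promoters in 5 classes of reads. The channels shown between 50 and 400 reads lie mostly below the line, and Ryr2 lies far below the grey band.

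Ryr2, the calcium release channel of the heart (ENSMUSG00000021313.8; chromosome 13, TSS 12199212), had the lowest ratio. It held 6 knockout and 48 wild-type reads (ratio 0.143, 0.0499 to 0.334), and 0.619% of its 323 like promoters had a lower one. Its wild-type reads lay mostly from 200 to 1200 bp downstream of the TSS, where the bins of 200 bp held 6, 14, 16, 9 and 9 reads against 0, 1, 1, 1 and 0 in the knockout library. From 1 to 3 kb on either side, outside the counted window, there were 3 and 14 reads. Its relatives were weaker, with 14 and 33 reads at Ryr1 of skeletal muscle and 2 and 1 at Ryr3.

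Of the calcium channel genes, 4 of 11 marked members were lower, against 4.9% of all promoters and 21.1% of promoters of like reads. Cacna1d, the pore subunit of an L-type channel, had 40 knockout and 99 wild-type reads (ratio 0.461, 0.311 to 0.672), counted at a TSS 137670 bp inside the gene (chromosome 14, TSS 31166672), while the 5′-most TSS had 0 and 1. Outside the counted window, from 1 to 3 kb, it had 7 and 37 reads, and with a 500 bp window its ratio was 0.679 and not called. Cacna1g, a T-type pore subunit, had a ratio of 0.408 (0.210 to 0.750; 15 and 42 reads), and the beta subunits Cacnb2 and Cacnb4 had 0.629 (0.468 to 0.840) and 0.659 (0.437 to 0.981). The beta subunits Cacnb1 and Cacnb3 had 0.895 (0.707 to 1.13) and 0.837 (0.554 to 1.26). Cacna1a, the P/Q-type pore subunit of nerve terminals, had 81 and 92 reads (ratio 1.005, 0.736 to 1.37) at a TSS 250551 bp inside the gene. Cacna1s, the L-type channel of skeletal muscle, had 58 and 83 reads (ratio 0.798, 0.560 to 1.13), also only at an internal TSS, 64506 bp from the first. The L-type genes Cacna1c and Cacna1f were unmarked, with 2 and 1 and with 1 and 2 reads.

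Of the potassium channel genes, 10 of 26 marked members were lower, against 4.9% of all promoters and 16.02% of promoters of like reads. Kcnk13, a tandem-pore potassium channel (chromosome 12, TSS 101202735), had the most reads of these, 102 and 182 (ratio 0.640, 0.497 to 0.820). From 1 to 3 kb it had 34 and 93 reads (ratio 0.417, 0.273 to 0.624). Subunits that modify other voltage-gated potassium channels included Kcng2 at 0.414 (0.251 to 0.662), Kcns1 at 0.598 (0.422 to 0.840) and Kcng3 at 0.643 (0.458 to 0.895). Kcng1, with 32 and 55 reads, had a ratio of 0.664 and an interval up to 1.05, and was not counted. Among pore subunits, Kcnh4 had 27 and 68 reads (ratio 0.453, 0.279 to 0.717), and Kcnh2 of cardiac repolarization had 26 and 56 (ratio 0.530, 0.319 to 0.858). The auxiliary subunits Kcne3 and Kcnip2 had 0.481 (0.285 to 0.787) and 0.532 (0.343 to 0.809). The lower Kcnip2 window was at a TSS 3770 bp inside the gene.

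Kcna3 and Kcnn4, potassium channels that set the membrane potential of lymphocytes, had ratios below 1 that did not reach the threshold. Kcna3, the voltage-gated channel Kv1.3 (chromosome 3, TSS 106839080), had 148 knockout and 228 wild-type reads (ratio 0.741, 0.598 to 0.915). Kcnn4, the calcium-activated channel KCa3.1 (chromosome 7, TSS 25155456), had 129 and 210 reads (ratio 0.701, 0.559 to 0.877), and 2.25% of its like promoters had a lower one. Kcnn4 passed the threshold at 0.645 with a 500 bp window, at 0.647 when scaled to total reads and at 0.566 when scaled to background, and Kcna3 at 0.598 when scaled to background. The tandem-pore channels Kcnk5 and Kcnk6 had 0.957 (0.790 to 1.16) and 1.03 (0.804 to 1.33). Kcnq5, an M-current channel with 247 and 344 reads, had a ratio of 0.819 (0.693 to 0.968); 2.75% of its like promoters had a lower one.

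Sodium and TRP channels added 4 lower promoters, 2 of 3 marked Scn genes (26.5% of like promoters), 1 of 4 Trpc (13.9%) and 1 of 4 Trpm (7.55%). Scn4b, a sodium channel beta subunit (chromosome 9, TSS 44946520), had 36 knockout and 85 wild-type reads (ratio 0.483, 0.318 to 0.722). It was lower under each of the 12 alternatives of counting and scaling in which it was compared. Scnn1g, a subunit of the epithelial sodium channel, had a ratio of 0.479 (0.273 to 0.813; 21 and 50 reads). Scn1a, a neuronal pore subunit, had 48 and 49 reads (ratio 1.12, 0.735 to 1.70), at a TSS 30776 bp inside the gene whose window also holds a noncoding TSS, Gm13630. Trpm2, a channel gated by ADP-ribose, had a ratio of 0.474 (0.274 to 0.792; 22 and 53 reads), and Trpc1 0.615 (0.395 to 0.941; 35 and 65 reads). Trpm4, a calcium-activated cation channel, had 129 and 149 reads (ratio 0.988, 0.774 to 1.26). Trpc4ap had 1.11 (0.882 to 1.39).

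**Figure D4:**
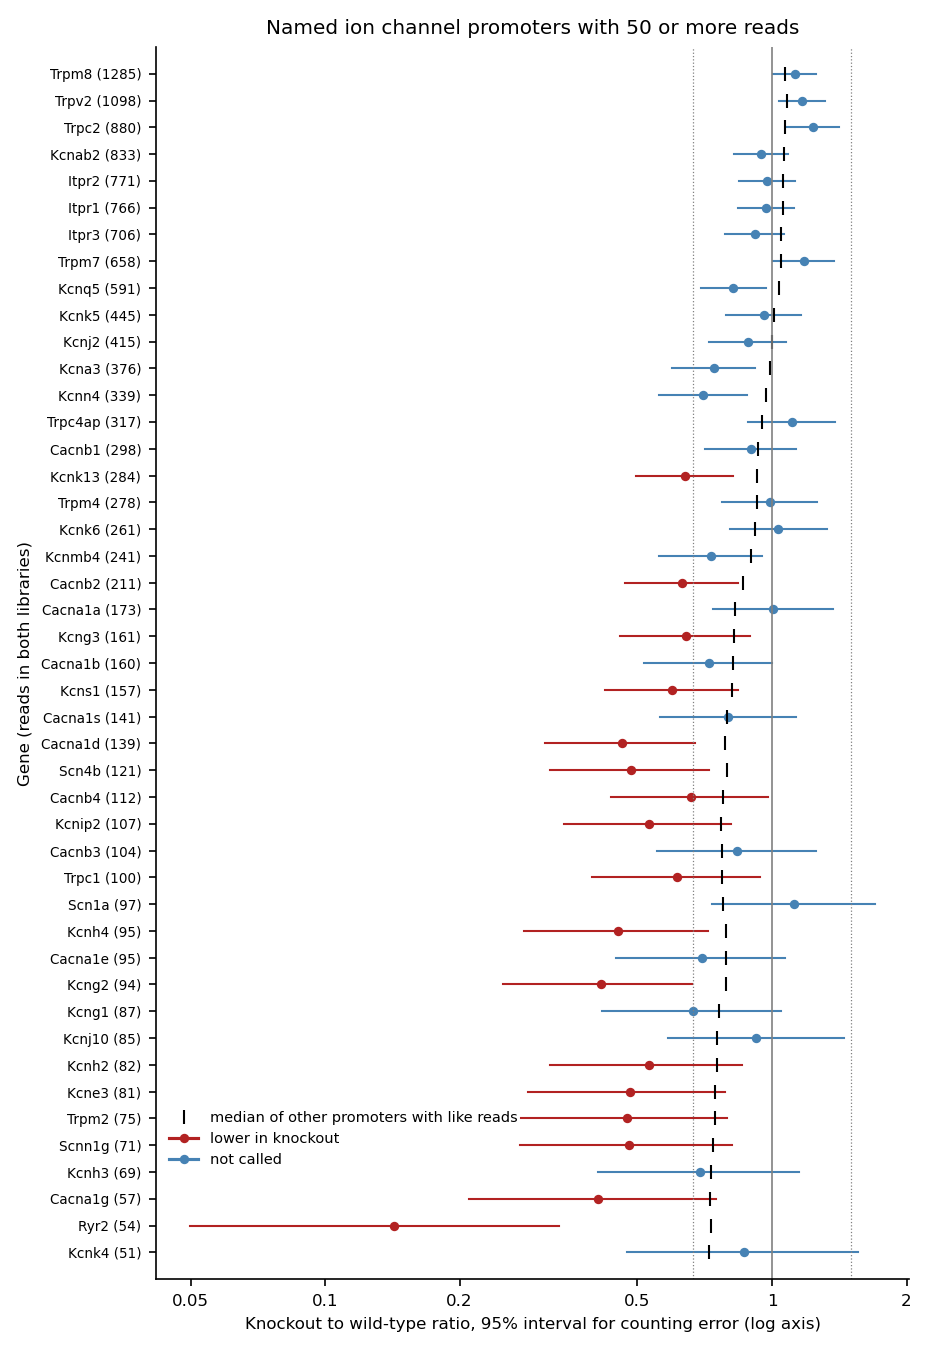
Ratio of knockout to wild type (log axis) with its 95% counting interval for the marked channel promoters named in the text, ordered by reads in both libraries (in brackets), with black ticks at the median of other promoters of like reads. The lower promoters shown have between 54 and 284 reads, and the intervals widen towards the bottom.

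The tissue lists are given beside the share lower among promoters of like reads, averaged over each list's marked members, which was 15.8% for all 53 marked channels. The 2 marked sensory members, Trpm8 and Trpc2, share their windows with other genes and have more than 800 reads, where 0% of promoters were lower, so their count of 0 says nothing about sensory channels. For heart 4 of 5 marked members were lower (Ryr2, Kcnh2, Kcnip2 and Cacnb2), against 18.1% of like promoters, with Kcnj2, an inward rectifier, at 0.883 (0.723 to 1.08). With the trend on read level removed, only Ryr2 of those 4 was still lower, and it had 6 knockout and 48 wild-type reads. The Cacnb2 window also holds the TSS of a pseudogene, Gm10849. For neurons 3 of 8 were lower, Cacna1g among them, against 19.4%, with Cacna1b at 0.722 (0.517 to 1.002) and Cacna1e at 0.696 (0.447 to 1.07). For skeletal muscle 1 of 3 was lower (Kcne3), against 17.8%, and for epithelial transport 1 of 2 (Scnn1g), against 26.7%, with Kcnj10 at 0.923. Of the 19 marked lymphocyte channels 6 were lower, against 11.0%, namely Ryr2, Cacna1d, Trpm2, Trpc1, Cacnb2 and Cacnb4. On chromosome 7, which carries PA1, 3 of 7 marked channels were lower, against 11.5% of like promoters, and elsewhere 16 of 46, against 16.5%. Of all marked promoters 4.38% on chromosome 7 and 4.94% elsewhere were lower.

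Genes that work with these channels in calcium signalling were nearly all marked. Of 39 listed genes 37 were matched and 36 were marked, and 0 were higher and 0 lower, with a median ratio of 0.907 and 26 below 1. Their median marked promoter held 489.5 reads, against 157 for the marked channels, and 0.0638% of all promoters with 400 to 800 reads were lower. That share was 3.53% with 200 to 400 reads, where several of the listed genes lay. It was 21.1% with 100 to 200 reads, where P2rx7 and Atp2b4 lay. At these shares a count of 0 is no result about the listed genes. The store-operated calcium channel Orai1 had 212 knockout and 289 wild-type reads (ratio 0.837, 0.698 to 1.003), in a window shared with Kdm2b, and its sensor Stim1 had 325 and 421 and 0.881 (0.760 to 1.02). The proton channel Hvcn1 had 388 and 554 and 0.799 (0.700 to 0.912). The lowest was Atp2a2, a calcium pump of the endoplasmic reticulum, at 0.702 (0.569 to 0.863), and the highest Clcn3, a chloride transporter, at 1.20 (1.02 to 1.42). Pkd2 was the unmarked member, with 10 and 27 reads.

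From 1 to 3 kb on either side of the TSS, the 19 lower channels held 390 knockout and 608 wild-type reads in sum (ratio 0.732, 0.643 to 0.833), and the 34 others 3458 and 3574 (ratio 1.10, 1.05 to 1.16). Of these 19 flanks, 11 were below 1, and without Kcnk13 and Cacna1d, left out after their values were seen, the ratio was 0.833 (0.724 to 0.959). The flanks of the other genes' lower promoters had a ratio of 0.823 (0.806 to 0.841). Those of the other genes' marked promoters that were not called had 1.128 (1.125 to 1.132), so the 1.10 is no gain particular to channels. Among the 114 unmarked channels, the summed windows held 419 and 560 reads (ratio 0.854, 0.751 to 0.971), near the 0.889 (0.874 to 0.904) of other unmarked promoters. Single genes differed between window and flank. At Itpr1 the window had a ratio of 0.970, but from 1 to 3 kb there were 161 and 267 reads (ratio 0.688, 0.562 to 0.840). Kcnn4 had 109 and 237 reads there (ratio 0.525, 0.414 to 0.661), whereas Kcna3 had 442 and 455 (ratio 1.11, 0.970 to 1.27).

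Several channel promoters lay in enriched stretches wider than those of promoters with like reads. Islands were called on both libraries together, and the widest island touching the window spanned 8000 bp at Kcna3, wider than at 99.7% of its like promoters, whose median was 1800 bp. It spanned 5000 bp at Kcnn4 (98.1%), 5400 bp at Itpr3 (94.5%), 4400 bp at Kcnk5 (94.8%) and 4400 bp at Kcnq5 (90.9%). At the other end, Kcnmb4, a beta subunit of the BK channel, had 600 bp against 1600 bp, and Trpc4ap 1000 bp against 1800 bp. Over all 53 marked channels the median width was 1200 bp, as for their like promoters, and 66.7% of the reads lay downstream of the TSS at the median channel, against 63.6%.

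**Figure D5:**
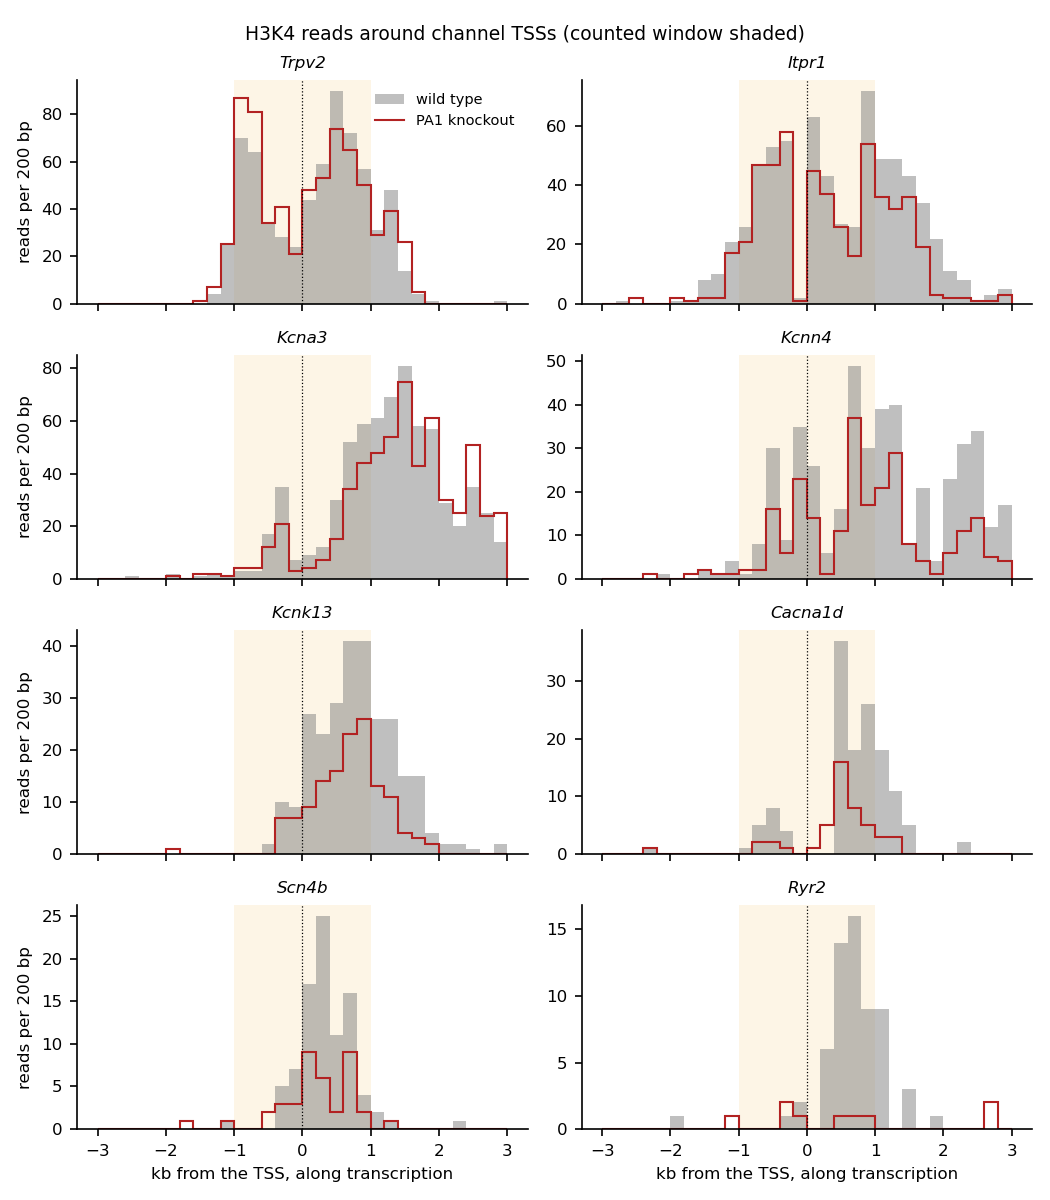
Reads per 200 bp (vertical, not scaled between libraries) from 3 kb upstream to 3 kb downstream of the counted TSS for 8 channel genes, wild type in grey and knockout in red, with the counted window shaded. Kcna3 signal reaches the downstream edge of the plot, Itpr1 had 161 knockout and 267 wild-type reads from 1 to 3 kb, and Ryr2 has few knockout reads throughout.

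Channel genes also held islands far from coding start sites. Noncoding start sites were not part of this filter. Of the islands that lay inside genes and over 5 kb from any coding TSS, 60 were in 31 channel genes by name, which are 13 marked and 19 unmarked entries. By the same rule 8 of 60 were lower and 1 higher in the knockout library, against 5.76% and 6.76% of 4187 such islands in all genes, and the median ratios were 0.9002 and 0.989. The island with the most reads was in Kcnq1, a cardiac and epithelial potassium channel whose promoter held 5 and 3 reads, and inside which a noncoding transcript is known to start. It spanned 3400 bp (chromosome 7, 150479601 to 150483000) with 490 knockout and 522 wild-type reads (ratio 1.07, 0.945 to 1.21). In Ryr1, all 3 islands were lower, with ratios of 0.502, 0.537 and 0.648. The single higher island lay in Kcnk5 (chromosome 14, 20987001 to 20988000; 59 and 25 reads), at 2.69 (1.66 to 4.49), while a second Kcnk5 island had 1.10 and the Kcnk5 promoter 0.957. Itpr1 held 7 islands, of which 2 were lower, at 0.266 (0.0987 to 0.619) and 0.495, and the widest, of 3600 bp with 187 and 148 reads, had a ratio of 1.44 (1.16 to 1.80).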

How the data were processed

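In the 2 deposited files each line is a mapped read, and their score column is 0 throughout, so lines were counted and no deposited score was used. The submitters' processing notes name the build mm9 and the tool SICER. An aligner was not given in the sources used here. Each read spans 25 bases, no file repeats a position on the same strand, and positions were read as 1-based, since 100% of the mismatch letters checked then equalled the NCBIM37 base (the assembly of mm9). Read 5′ ends were moved 75 bp into the fragment and counted within 1 kb of each annotated TSS, keeping the TSS with most reads in both libraries. The median gene's promoter held 43 knockout and 63 wild-type reads.

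Libraries were scaled by TMM (trims of 30% and 5%; factor 0.923) over promoters with 50 or more reads. Ratios have exact conditional binomial 95% intervals. Reads were PCR-amplified without molecular identifiers and are not independent molecules, so intervals cover counting error only. Islands joined 200 bp windows of 9 or more reads (Poisson probability under 1e-05, taking 80% of the genome as covered) that lay at most 200 bp apart, with at least 20 reads in all. Trends were removed with running medians of 501 promoters. Scaling, intervals and calls were tested on simulated Poisson counts without trends on read level or GC content. The counting of reads was not part of that test. Python 3.11.15, numpy 2.4.6, pandas 2.3.3 and scipy 1.17.1 were used.

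The members and gene lists were chosen with earlier results of these data known. The genes named were the 10 members with most reads, those lower or higher, the member with most reads of each family, the 3 highest and 3 lowest ratios, the 2 nearest to 50 reads on each side, the lymphocyte channels, and the marked members of the tissue lists; others were named after their values were seen. The alternatives were a 2 kb or 500 bp window, no shift, minimums of 20 or 100 reads, other scalings, trends removed, the 5′-most TSS, windows with another TSS left out and a 2-fold threshold. The other 2 samples of the series were not analysed here. Single values of some members are not reported here.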

Additional observations from a re-analysis of the deposited data

How the results depend on the processing

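The lower channel promoters numbered 19 in the values above, with the share lower of all promoters (4.9%) in brackets here and below. They numbered 10 with the 500 bp window (3.71%), 10 with a minimum of 100 reads (3.34%) and 31 with background scaling (16.7%). There were 5 with the level trend removed (1.27%), 8 with both trends removed (1.13%) and 9 at a 2-fold threshold (1.33%). Under the other alternatives there were 13 to 23 (3.66% to 7.78%). With a minimum of 100 reads 34 members were marked. The count of higher channels, 0 above, was 1 with the 2 kb window and 1 with a minimum of 20 reads, where 0.773% and 0.838% of all promoters were higher. The median log2 ratio of marked channels relative to all promoters was -0.46, while removing the level trend gave -0.19 and removing both gave -0.11, and it was negative in each alternative run. Relative to promoters of like reads it was -0.18, and -0.20 to -0.09 under the alternatives, the last with the GC trend removed. Over all tested promoters, total reads scaling put the median log2 ratio at -0.11 and background scaling at -0.31. For single named promoters, 46 values lost their call, 10 gained one and 0 calls changed direction, while 34 values of 17 uncalled promoters lay on the other side of 1 (Kcnk5 at 1.20 with the 500 bp window, Trpv2 at 0.942 with background scaling). No paired analysis was possible because each genotype has 1 library and the labels give no replicate numbers. Depth limits the weakly marked channels most, since at 50 reads the interval is wide (0.474 to 1.56 at Kcnk4), and no value here has a replicate behind it.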
